A study of Homo sapiens with 16 samples.

Results

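RNA levels of 9 genes that recognise, unwind, tail or degrade RNA in the nucleus were followed in U2OS cells, an established human osteosarcoma line, over all 16 libraries of a dose series. The genes were chosen by symbol and role, by a rule that uses no measured value, although earlier results of these data were known when it was written. They are RBM7, ZCCHC8, ZCCHC7, SKIV2L2, PAPD5, DIS3, C1D, MPHOSPH6 and XRN2. All 9 were among the 25270 genes of the matrix, and all 9 were among the 10600 genes with a mean of at least 1 FPKM (fragment numbers corrected for transcript length and for library size) that entered the tests. Cells were treated for 6 h with the solvent DMSO (1 library) or with CPT, T4 or T5, each at 0.5, 2, 5, 10 and 20 µM (1 library per dose). CPT is the usual abbreviation of camptothecin, which traps topoisomerase I on DNA, but the labels give only the letters. T4 and T5 are code names of compounds that the series calls modulators of alternative polyadenylation, the choice of the site at which a new mRNA is cleaved and tailed. All libraries share the cell line, the time and the absence of any replicate.

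The nuclear RNA exosome is a barrel of non-catalytic subunits with attached nucleases that degrade RNA from its 3′ end. It depends on adaptors that find the substrates. SKIV2L2, now named MTREX and widely known as MTR4, is the helicase that feeds RNA into the barrel. With the RNA-binding protein RBM7 and the zinc-knuckle protein ZCCHC8 it forms the nuclear exosome targeting complex (NEXT), known for removing promoter upstream transcripts and other short unprocessed RNA. With the zinc-knuckle protein ZCCHC7 and the poly(A) polymerase PAPD5, now named TENT4B, it forms the TRAMP complex, which adds short tails to nucleolar RNA. DIS3 is the processive nuclease of the exosome, C1D and MPHOSPH6 are cofactors that bind it during ribosomal RNA processing, and XRN2 is the nuclease that degrades RNA from the 5′ end and helps RNA polymerase II to terminate.

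The promoter stretches of 3 genes are shown because their trends differed. PAPD5 and ZCCHC8 fell with each compound, and C1D was called with none. The bases lie outside every annotated exon and come from RefSeq (GRCh38.p14). Those of PAPD5 and ZCCHC8 lie just before the start of the gene in GENCODE. The C1D stretch lies within the C1D gene of GENCODE, which starts at 68110948 on the minus strand, so it is not the promoter of that start. Both strands were searched for the SP1 GC box GGGCGG, the NF-Y box CCAAT, the ETS motif CCGGAAG, the AP-1 motif TGANTCA, the CREB motif TGACGTCA, the TATA box TATAAA and the NRF1 motif. Capitals mark each match.

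PAPD5, chr16:50152661-50152910, plus strand: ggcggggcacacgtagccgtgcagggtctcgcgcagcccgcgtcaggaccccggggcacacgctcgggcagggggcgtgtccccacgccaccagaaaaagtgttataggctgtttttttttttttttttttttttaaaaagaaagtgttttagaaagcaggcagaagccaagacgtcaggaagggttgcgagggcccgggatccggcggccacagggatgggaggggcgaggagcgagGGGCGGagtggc

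ZCCHC8, chr12:122501074-122501182, minus strand: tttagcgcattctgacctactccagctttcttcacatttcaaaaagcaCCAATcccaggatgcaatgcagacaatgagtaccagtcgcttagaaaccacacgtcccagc

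C1D, chr2:68063026-68063254, minus strand: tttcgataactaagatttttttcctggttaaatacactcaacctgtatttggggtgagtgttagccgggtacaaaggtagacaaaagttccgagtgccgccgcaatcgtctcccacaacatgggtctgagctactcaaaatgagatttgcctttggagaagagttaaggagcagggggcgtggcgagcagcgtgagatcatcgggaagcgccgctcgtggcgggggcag

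The PAPD5 stretch of 250 bases held 1 GC box, which 42.6% of 35116 promoters hold in a window of that length. The ZCCHC8 stretch of 109 bases held 1 CCAAT box, against 13.6% of promoters in the same window, the part farthest from the RefSeq start. For ZCCHC8 this window ends at the start of the gene in GENCODE 29. The C1D stretch of 229 bases held none of the 7 motifs, and neither did a stretch of 127 bases upstream of MPHOSPH6, which fell with each compound. The bases between that stretch and the MPHOSPH6 start were not searched, nor were those before the GENCODE start of C1D. The GC box and the CCAAT box are general promoter elements, and the pair of falling genes shared no motif of this search.

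Depth relative to DMSO, judged by the step size of the smallest FPKM values, ranged from 0.639 to 0.997, and absolute depth is unknown. Of 12 mesenchymal and bone markers, 8 were at 1 FPKM or more in DMSO, among them VIM at 358 and COL1A1 at 301 FPKM, while COL1A2, SP7, BGLAP and IBSP were below 1 FPKM in every library. Markers of other cell types were low over the 16 libraries. Their summed level was 2.31 to 4.52 FPKM for 5 epithelial genes and 1.90 to 3.96 FPKM for 6 blood genes. In each of these lists 1 gene was at 1 FPKM or more in DMSO, EPCAM at 1.53 and CD68 at 2.38 FPKM. KRT14 reached 2.20 FPKM in its highest library. Of the bone markers, RUNX2, ALPL and SPP1 were in the same range in DMSO, at 2.86, 2.54 and 1.71 FPKM. FPKM is a share of each library, so fewer cells and less RNA per cell cannot be told apart, and a lower value is a lower share of the RNA measured.

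In DMSO the levels of the 9 genes ran from 55.3 FPKM for XRN2 to 4.05 FPKM for PAPD5. SKIV2L2 followed XRN2 at 37.8 FPKM, then MPHOSPH6 at 29.7, C1D at 17.0, RBM7 at 12.8, ZCCHC7 at 8.70, DIS3 at 5.90 and ZCCHC8 at 4.92 FPKM. The helicase was thus listed at 2.97 times the level of RBM7 and 4.35 times that of ZCCHC7, its partners in NEXT and TRAMP. With 1 DMSO library, whether neighbours in this order differ cannot be tested. The ratio of the highest to the lowest FPKM over the 16 libraries separated the genes more widely. It was 27.9 for ZCCHC7, 12.9 for RBM7, 10.7 for PAPD5 and 8.09 for ZCCHC8, the 4 adaptor genes, then 4.53 for SKIV2L2. It was 3.02 for DIS3, 2.49 for XRN2, 2.11 for MPHOSPH6 and 1.75 for C1D.

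**Figure D1:**
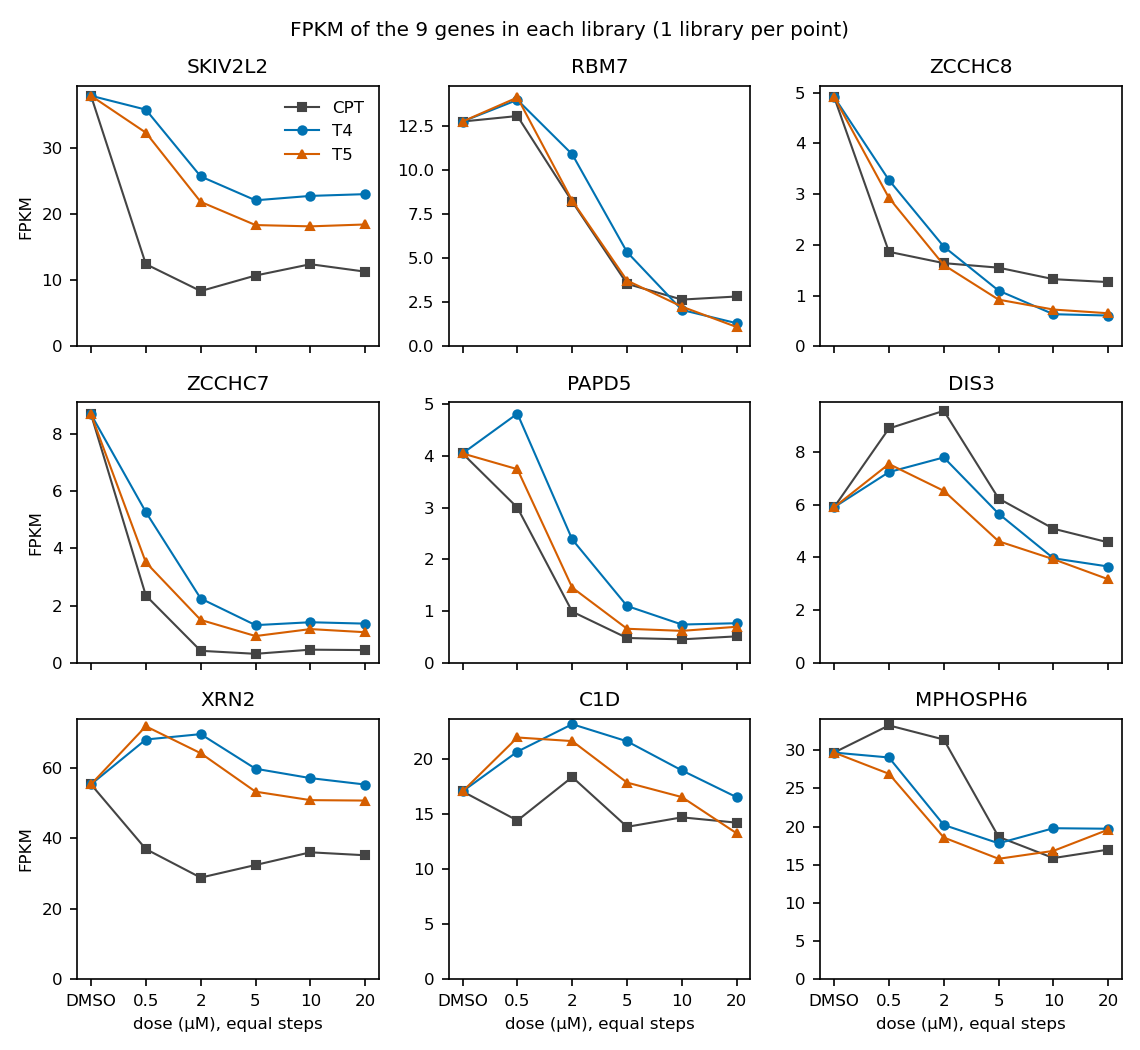
FPKM (y axis, linear from 0) of each gene against dose in µM (x axis, doses in equal steps, with the DMSO library first), with 1 point per library and 1 colour per compound. RBM7, ZCCHC8, ZCCHC7 and PAPD5 drop with each compound, SKIV2L2 and XRN2 are lowest with CPT, and C1D stays between 13.2 and 23.1 FPKM.

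Changes with dose were fitted on log2(FPKM + 1), a scale that understates the change of low values, over the DMSO library and the 5 libraries of a compound. Each value is the fitted change from 0 to 20 µM with its standard error (6 libraries), and adjusted p-values come from limma with Benjamini-Hochberg adjustment over all 10600 genes at 0.05. With CPT 5 of the 9 genes fell, beside 25.8% of all genes tested. With T4 6 of the 9 fell, beside 32.4%, and with T5 7 of the 9 fell, beside 34.5%. None of the 9 rose, while 17.9% of all genes rose with CPT, 14.5% with T4 and 18.2% with T5. The median fitted change of the 9 was -1.11 with CPT, -0.81 with T4 and -1.10 with T5, beside -0.14, -0.27 and -0.29 over all genes. The 3 trends share the DMSO library, so their values are given side by side and their likeness is no result. The library medians lay 0.05 to 0.63 (log2) below that of DMSO. Setting all medians equal moved the median change of all genes to 0.31 with CPT, 0.38 with T4 and 0.38 with T5, and left 3, 4 and 5 of the 9 genes falling, which were RBM7, ZCCHC7 and PAPD5 with every compound, ZCCHC8 with T4 and T5 and SKIV2L2 with T5. Over all genes it gave 3572 higher and 1643 lower calls with CPT in place of 1899 and 2739, 4293 and 1847 with T4 in place of 1533 and 3438, and 4388 and 1992 with T5 in place of 1929 and 3658. Leaving out 10 µM CPT left none of the 9 genes, and 1 gene of all those tested, called on the CPT trend.

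**Figure D2:**
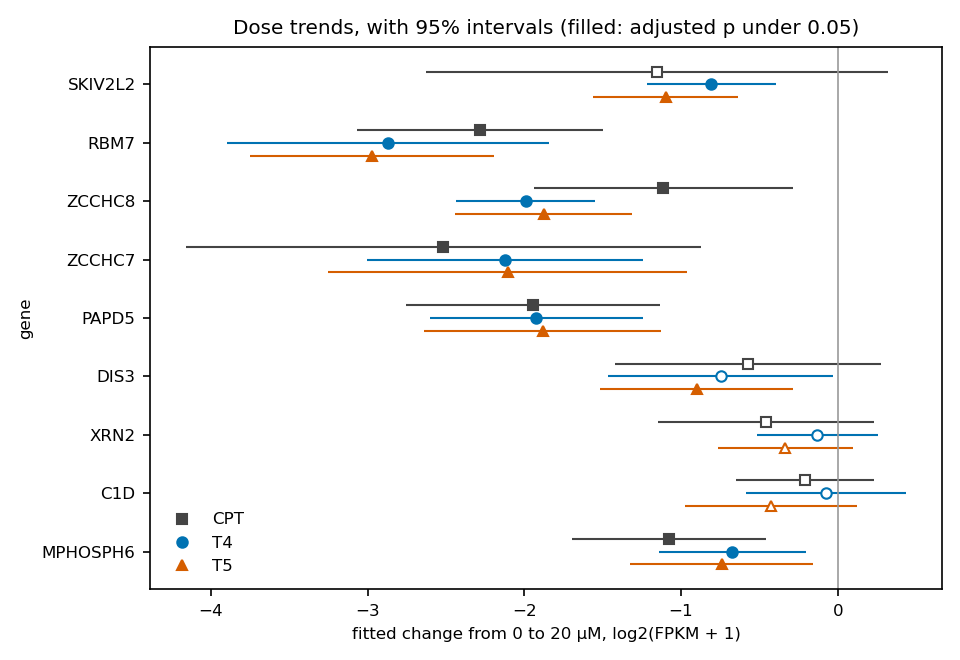
Fitted change from 0 to 20 µM on the log2(FPKM + 1) scale (x axis) for each gene (y axis) and compound, with 95% intervals, where filled points have an adjusted p under 0.05. RBM7 has the most negative fitted change with T4 (-2.87) and T5 (-2.97), ZCCHC7 with CPT (-2.52), and the intervals of C1D include 0 with all 3 compounds.

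SKIV2L2, the helicase shared by NEXT and TRAMP, was lower than in DMSO in all 15 treated libraries. From 37.8 FPKM in DMSO it was at 12.4, 8.35, 10.7, 12.4 and 11.3 FPKM at 0.5, 2, 5, 10 and 20 µM CPT. At the same doses it was at 35.7, 25.7, 22.1, 22.7 and 23.0 FPKM with T4 and at 32.3, 21.8, 18.3, 18.1 and 18.4 FPKM with T5. CPT thus gave its low level already at the lowest dose, while T4 and T5 reached theirs by 5 µM and no T4 library was at or below 50% of the DMSO level. SKIV2L2 fell with T4, with a change of -0.81 ± 0.17 (limma adjusted p = 0.0100), and with T5, with -1.10 ± 0.19 (limma adjusted p = 0.0047). The CPT change of -1.15 ± 0.61 was not called (limma adjusted p = 0.165), and over the CPT libraries alone it was 0.05. Exons of PLPP1 overlap those of SKIV2L2 on the other strand, and the labels do not say whether libraries kept the strand.

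RBM7, the RNA-binding subunit of NEXT, had the lowest share of its DMSO level with T4 and T5. From 12.8 FPKM in DMSO it was at 13.1, 8.21, 3.55, 2.65 and 2.83 FPKM over the rising doses of CPT. It was at 13.99, 10.9, 5.35, 2.07 and 1.31 FPKM with T4, and at 14.1, 8.26, 3.73, 2.25 and 1.10 FPKM with T5. All 3 libraries at 0.5 µM were above DMSO, and all 12 libraries at 2 µM and more were below it. At 20 µM RBM7 was at 22.2% of its DMSO level with CPT, 10.3% with T4 and 8.59% with T5. It fell with each compound, with changes of -2.28 ± 0.32 with CPT (limma adjusted p = 0.0105), -2.87 ± 0.43 with T4 (limma adjusted p = 0.0032) and -2.97 ± 0.32 with T5 (limma adjusted p = 0.0014). Among all genes tested, these changes lay at percentiles 2.45, 0.708 and 0.821. The CPT call was lost without the 10 µM library (limma adjusted p = 0.054), while the T4 and T5 calls held in all 15 alternatives tried for each. C11orf71 overlaps RBM7 on the other strand and AP002373.1 on the same strand.

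ZCCHC8, the scaffold subunit of NEXT, was lower than in DMSO in all 15 treated libraries. From 4.92 FPKM in DMSO it was at 1.86, 1.64, 1.55, 1.32 and 1.27 FPKM over the rising doses of CPT. It was at 3.28, 1.97, 1.10, 0.634 and 0.607 FPKM with T4, and at 2.93, 1.60, 0.921, 0.725 and 0.652 FPKM with T5. CPT gave the lowest level of the 3 compounds at 0.5 µM and the highest from 5 µM on. ZCCHC8 fell with each compound, with changes of -1.11 ± 0.34 with CPT (limma adjusted p = 0.0405), -1.99 ± 0.19 with T4 (limma adjusted p = 0.0012) and -1.88 ± 0.24 with T5 (limma adjusted p = 0.0019). The CPT call was lost without the DMSO library and without the 5, 10 or 20 µM library. The RBM7 level was 2.60 times the ZCCHC8 level in DMSO, and the ratio was 7.01 at 0.5 µM CPT, 4.27 at 0.5 µM T4 and 4.83 at 0.5 µM T5. It was 2.23, 2.16 and 1.68 at 20 µM, closer to the DMSO ratio than at 0.5 µM.

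ZCCHC7, the zinc-knuckle subunit of TRAMP, had the widest range of the 9 genes. From 8.70 FPKM in DMSO it was at 2.35, 0.417, 0.312, 0.457 and 0.442 FPKM over the rising doses of CPT. It was at 5.28, 2.25, 1.32, 1.42 and 1.37 FPKM with T4, and at 3.51, 1.499, 0.934, 1.18 and 1.07 FPKM with T5. Every treated library was below DMSO, and the lowest value, at 5 µM CPT, was 3.59% of the DMSO level. ZCCHC7 fell with each compound, with changes of -2.52 ± 0.68 with CPT (limma adjusted p = 0.0277), -2.12 ± 0.37 with T4 (limma adjusted p = 0.0051) and -2.11 ± 0.48 with T5 (limma adjusted p = 0.0115). The CPT call was lost without DMSO and without the 0.5, 5 or 10 µM library. The SKIV2L2 level, 4.35 times that of ZCCHC7 in DMSO, was 25.5 times it at 20 µM CPT, 16.8 times at 20 µM T4 and 17.2 times at 20 µM T5.

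PAPD5, the poly(A) polymerase of TRAMP, was between 3.00 and 4.82 FPKM at the lowest dose and at 1.10 FPKM or less from 5 µM on. From 4.05 FPKM in DMSO it was at 3.00, 0.989, 0.479, 0.453 and 0.510 FPKM over the rising doses of CPT. It was at 4.82, 2.39, 1.10, 0.739 and 0.765 FPKM with T4, and at 3.75, 1.45, 0.657, 0.617 and 0.696 FPKM with T5. Only 0.5 µM T4 was above DMSO, and each compound had its 3 lowest values at 5, 10 and 20 µM. PAPD5 fell with each compound, with changes of -1.94 ± 0.33 with CPT (limma adjusted p = 0.0111), -1.92 ± 0.28 with T4 (limma adjusted p = 0.0031) and -1.88 ± 0.31 with T5 (limma adjusted p = 0.0041). The CPT call was lost without the 10 µM library (limma adjusted p = 0.054).

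DIS3, the exosome nuclease, was above its DMSO level at low doses and below it at high doses. From 5.90 FPKM in DMSO it was at 8.89, 9.56, 6.23, 5.09 and 4.57 FPKM over the rising doses of CPT. It was at 7.24, 7.79, 5.66, 3.96 and 3.65 FPKM with T4, and at 7.54, 6.53, 4.61, 3.93 and 3.17 FPKM with T5. The highest value of each compound was 162% of DMSO at 2 µM CPT, 132% at 2 µM T4 and 128% at 0.5 µM T5. DIS3 fell with T5, with a change of -0.90 ± 0.26 (limma adjusted p = 0.0256), a call that was lost without the 0.5, 5, 10 or 20 µM library. That call was also lost with equal library medians, with quantile scaling and on a linear dose, and held in 8 of 15 alternatives. The changes of -0.57 ± 0.35 with CPT and -0.75 ± 0.30 with T4 were not called (limma adjusted p = 0.218 and 0.0816), though without the DMSO library both were called, at -1.20 each. BORA and PIBF1 have exons that overlap DIS3 on the other strand.

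XRN2, the nuclease that acts from the 5′ end, was below its DMSO level at every dose of CPT and near or above it with T4. From 55.3 FPKM in DMSO it was at 36.9, 28.8, 32.4, 36.0 and 35.2 FPKM over the rising doses of CPT. It was at 68.0, 69.5, 59.7, 57.1 and 55.2 FPKM with T4, and at 71.8, 64.1, 53.2, 50.8 and 50.7 FPKM with T5. All 5 CPT libraries were below every T4 and T5 library. No trend was called, with changes of -0.46 ± 0.28 with CPT, -0.13 ± 0.16 with T4 and -0.33 ± 0.18 with T5 (limma adjusted p = 0.225, 0.528 and 0.158). Without the DMSO library the T4 and T5 trends were called lower, at -0.43 and -0.67, and with equal library medians the T4 trend was called higher, at 0.51. With quantile scaling the T5 trend was called lower, at -0.59.

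C1D, a cofactor of the exosome, varied least. From 17.0 FPKM in DMSO it was at 14.4, 18.3, 13.8, 14.7 and 14.2 FPKM over the rising doses of CPT. It was at 20.6, 23.1, 21.6, 18.9 and 16.5 FPKM with T4, and at 21.9, 21.6, 17.8, 16.5 and 13.2 FPKM with T5. No trend was called, with changes of -0.21 ± 0.18 with CPT, -0.08 ± 0.21 with T4 and -0.43 ± 0.23 with T5 (limma adjusted p = 0.376, 0.794 and 0.157), and that of T5 was called lower, at -0.85, without the DMSO library. The annotation names 5 pseudogenes of C1D, so its reads may have been split among copies and its values are uncertain.

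MPHOSPH6, a cofactor that bridges the exosome and the helicase, was lower at the higher doses of each compound but never at 50% of DMSO or less. From 29.7 FPKM in DMSO it was at 33.3, 31.4, 18.6, 15.9 and 17.0 FPKM over the rising doses of CPT. It was at 29.1, 20.2, 17.8, 19.8 and 19.7 FPKM with T4, and at 26.9, 18.6, 15.8, 16.8 and 19.6 FPKM with T5. At 2 µM CPT was above DMSO while T4 and T5 were below it. MPHOSPH6 fell with each compound, with changes of -1.08 ± 0.26 with CPT (limma adjusted p = 0.0196), -0.67 ± 0.20 with T4 (limma adjusted p = 0.0300) and -0.74 ± 0.24 with T5 (limma adjusted p = 0.0414). The CPT call was lost without the 0.5 or 10 µM library and the T4 call without DMSO or the 0.5 or 10 µM library. The T5 call was lost without DMSO or the 0.5, 5 or 10 µM library. With equal library medians no MPHOSPH6 trend was called, and with quantile scaling or no filter on low values only that of CPT was. Of 15 alternatives, the call held in 11 with CPT, 7 with T4 and 4 with T5. Over them the change ranged from -1.40 to -0.63 with CPT, from -0.88 to -0.03 with T4 and from -1.12 to -0.07 with T5.

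Set against DMSO 1 library at a time, with no test, the count of the 9 genes that were lower by 2-fold or more on the log2(FPKM + 1) scale grew up to 5 µM and then held. With CPT it was 3 at 0.5 µM, 4 at 2 µM and 5 at each higher dose, beside 6.81%, 17.6%, 21%, 21.3% and 21% of all genes tested. With T4 it was 0, 1, 4, 4 and 4 over the rising doses, beside 1.03%, 9.75%, 17.3%, 21.6% and 22.9%. With T5 it was 1, 3, 5, 5 and 5, beside 4.41%, 15.8%, 23.8%, 26.1% and 26.5%. None of the 9 was higher by 2-fold in any library, where the shares of all genes were 2.45%, 5.74%, 5.58%, 5.43% and 6.12% over the rising doses of CPT. For T4 these shares were 0.368%, 2.25%, 2.12%, 1.64% and 1.2%, and for T5 1.21%, 2.9%, 3.07%, 3.29% and 2.44%. SKIV2L2, ZCCHC8 and ZCCHC7 were the 3 genes past 2-fold at 0.5 µM CPT, and ZCCHC7 was the 1 gene past it at 0.5 µM T5.

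**Figure D3:**
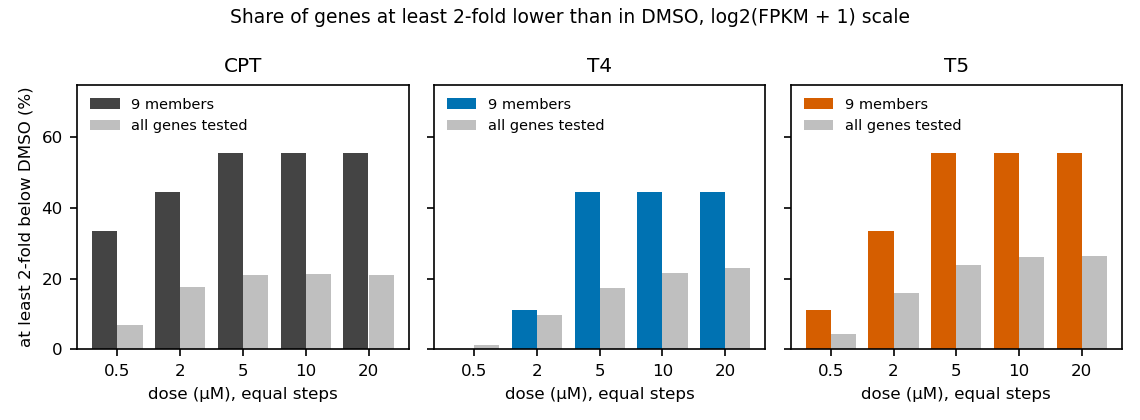
Share in percent (y axis) of the 9 genes, and of all 10600 genes tested, at or below a 2-fold decrease from DMSO in each treated library, by dose in µM (x axis) and compound. The 9 genes lie at 5 of 9 from 5 µM on with CPT and T5 and at 4 of 9 with T4, while all genes lie at 17.3% to 26.5%.

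The compounds were then compared with each other at matched doses, in 3 pairs. The mean difference of log2(FPKM + 1) over the 5 doses was tested over 10 libraries with each dose as a block, without DMSO, and intervals are 95%. For T4 against CPT, 5 of the 9 genes were higher with T4 and 1 was lower, beside 28.3% and 36.9% of all genes. SKIV2L2 was higher by 1.15 (0.86 to 1.44, limma adjusted p = 0.0006), ZCCHC7 by 0.87 (0.67 to 1.08, limma adjusted p = 0.0005) and XRN2 by 0.85 (0.63 to 1.08, limma adjusted p = 0.0007). PAPD5 was higher by 0.46 (0.23 to 0.68, limma adjusted p = 0.0052) and C1D by 0.39 (0.21 to 0.58, limma adjusted p = 0.0043). Each of these 5 was higher with T4 at all 5 doses, and DIS3 was lower at all 5, with a mean difference of -0.24 (-0.41 to -0.07, limma adjusted p = 0.0244). The DIS3 call was lost with equal library medians, with quantile scaling, with dose as a line and without the library of either compound at 2, 5, 10 or 20 µM. The NEXT subunits showed no called difference, at -0.01 (-0.45 to 0.43) for RBM7 and -0.11 (-0.52 to 0.31) for ZCCHC8, nor did MPHOSPH6 at -0.07 (-0.40 to 0.25). Those intervals leave room for differences of either sign.

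For T5 against CPT, 4 of the 9 genes were higher with T5 and 1 was lower, beside 25% and 37.6% of all genes. SKIV2L2 was higher by 0.90 (0.57 to 1.23, limma adjusted p = 0.0018), XRN2 by 0.75 (0.51 to 1.002, limma adjusted p = 0.0012), ZCCHC7 by 0.58 (0.41 to 0.75, limma adjusted p = 0.0007) and PAPD5 by 0.21 (0.08 to 0.34, limma adjusted p = 0.0143). All 4 were higher at every dose. With equal library medians, 3986 of all genes were higher and 2521 lower, in place of 2645 and 3984. DIS3 was lower at every dose, with a mean difference of -0.36 (-0.53 to -0.18, limma adjusted p = 0.0055). With equal library medians this was -0.17, and -0.16 with quantile scaling, and it was not called (limma adjusted p = 0.083 in each). RBM7 at -0.17 (-0.54 to 0.20), ZCCHC8 at -0.17 (-0.52 to 0.18), C1D at 0.24 (0.01 to 0.48) and MPHOSPH6 at -0.20 (-0.52 to 0.13) were not called. ZCCHC8 was called lower, at -0.33, without the libraries at 0.5 µM, and C1D higher, at 0.33, without those at 20 µM. C1D was also called higher with equal library medians, at 0.43, and with quantile scaling, at 0.37, while the PAPD5 call was lost with dose as a line (limma adjusted p = 0.275).

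Between T5 and T4 no mean difference of the 9 genes exceeded 0.29 in size. SKIV2L2 was lower with T5 by a mean difference of -0.25 (-0.33 to -0.16, limma adjusted p = 0.0057), ZCCHC7 by -0.29 (-0.43 to -0.16, limma adjusted p = 0.0116), PAPD5 by -0.25 (-0.41 to -0.09, limma adjusted p = 0.0282) and MPHOSPH6 by -0.12 (-0.22 to -0.03, limma adjusted p = 0.0484). These 4 of the 9 genes, lower with T5 at all 5 doses, stand beside 26.5% of all genes called lower, and 6.05% were called higher. With equal library medians, 2622 of all genes were higher and 1166 lower, in place of 641 and 2807, and only SKIV2L2 and ZCCHC7, 2 of the 9, were called. RBM7 at -0.17 (-0.36 to 0.03), ZCCHC8 at -0.06 (-0.19 to 0.06), DIS3 at -0.12 (-0.26 to 0.02), XRN2 at -0.10 (-0.20 to 0.0022) and C1D at -0.15 (-0.29 to -0.01) were not called. With dose as a line in place of a block, no gene of all those tested was called between T5 and T4. The PAPD5 call was also lost with no filter on low values, with quantile scaling and without the libraries at 0.5, 2 or 5 µM and that of MPHOSPH6 also with no filter, with quantile scaling and without those at 0.5, 2, 5 or 10 µM, while XRN2 at -0.14 and C1D at -0.21 were called without those at 0.5 µM.

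The genes also differ in the length of DNA that must be transcribed, and this ordering was chosen after the values were seen. Median spans of coding transcripts, from GENCODE 29 on GRCh38, were 238 kb for ZCCHC7, 118 kb for SKIV2L2, 86.5 kb for XRN2 and 77.8 kb for PAPD5. They were 28.2 kb for ZCCHC8, 24.5 kb for DIS3, 21.6 kb for MPHOSPH6, 20.6 kb for C1D and 10.3 kb for RBM7. The 4 genes of longest span were the 4 called higher with both T4 and T5 than with CPT. Over all genes with a span (91.8% of those tested), the share called higher with T4 than with CPT was 4.52% below 10 kb, 11.9% from 10 to 30 kb and 35.4% from 30 to 60 kb. It was 56.9% from 60 to 100 kb and 76.8% above 100 kb, where the median difference was 0.60. SKIV2L2 and XRN2 lay above the upper quartiles of genes of like span, which were 0.95 and 0.64, while ZCCHC7 and PAPD5 lay within the quartiles. C1D, at 0.39, lay above the upper quartile of 0.01 for spans of 10 to 30 kb. The whole C1D gene spans 69.8 kb, however, and for spans of 60 to 100 kb the quartiles were 0.03 and 0.64. With T5 against T4 the share called lower was 8.66% below 10 kb and 42.5% above 100 kb. The part of span in these differences was not tested.

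**Figure D4:**
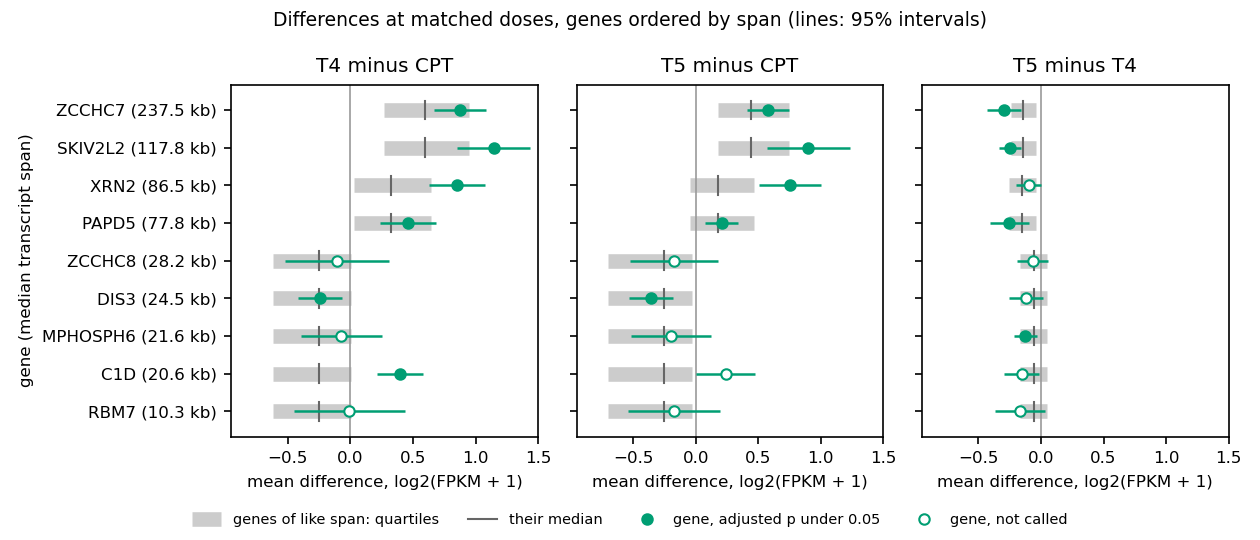
Mean difference of log2(FPKM + 1) over 5 matched doses (x axis, points with 95% intervals) for each gene, ordered by median transcript span in kb (y axis), beside the quartiles and median of all tested genes in the same span range (grey). ZCCHC7, SKIV2L2, XRN2 and PAPD5 lie right of 0 with both T4 and T5 against CPT, as do the medians of genes of their span, and RBM7 and ZCCHC8 have intervals that include 0 in all 3 panels.

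Whether a dose response itself differed was tested as a difference of slopes over 0.5 to 20 µM in the treated libraries alone. With all of these libraries in the fit, ZCCHC8 was the only 1 of the 9 genes called. Its slope was lower with T4 than with CPT by a difference of -1.18 ± 0.19 (limma adjusted p = 0.0109) and with T5 than with CPT by -0.96 ± 0.19 (limma adjusted p = 0.0202). The background was 6.26% of all genes called lower and 1.05% higher for T4, and 6.92% lower and 2.74% higher for T5. The T4 call was lost without 0.5 µM CPT (limma adjusted p = 0.062), and the T5 call without 0.5 or 20 µM CPT or without 0.5 or 10 µM T5. Other genes were called in some of these fits. Without 0.5 µM T4 the slope of RBM7, beside that of ZCCHC8, was called lower with T4 than with CPT. Without 0.5 µM CPT the slopes of SKIV2L2 and XRN2, in place of ZCCHC8, were called lower with T5 than with CPT. With DMSO in the fit as a common intercept, neither was called, at -0.40 and -0.43 (limma adjusted p = 0.175 and 0.166). That fit instead called SKIV2L2, XRN2 and C1D higher with T4 than with CPT, and XRN2 higher with T5. Between T5 and T4 no slope of any of the 10600 genes was called by limma.

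A wider list of nuclear RNA decay factors held 40 genes, of which 37 were tested. NRDE2 was below the FPKM filter, and SKIV2L and DXO were listed at 0 in every library. With CPT 17 of the 37 fell and 1 rose, with T4 21 fell and 2 rose, and with T5 21 fell and 3 rose, with median changes of -0.82, -0.87 and -0.97. Of all genes tested, 25.8%, 32.4% and 34.5% fell and 17.9%, 14.5% and 18.2% rose with CPT, T4 and T5. With equal library medians 14 fell and 10 rose with CPT, 11 and 12 with T4, and 15 and 11 with T5, and without 10 µM CPT none of the 37 was called with CPT. Of the 10 subunits of the exosome barrel and its nuclease EXOSC10, 6 fell with CPT, 7 with T4 and 7 with T5, and 1 rose with each. EXOSC3, a cap subunit of the barrel, had changes of -2.35 ± 0.38 with CPT, -2.28 ± 0.31 with T4 and -2.14 ± 0.44 with T5 (limma adjusted p = 0.0107, 0.0023 and 0.0082). Of 9 factors that link the exosome to the mRNA cap or the poly(A) tail, 5 fell with each compound, SRRT rose with T4 (1.13 ± 0.38, limma adjusted p = 0.0473) and PABPN1 rose with T5 (0.68 ± 0.14, limma adjusted p = 0.0089). These last were named after their values were seen. Among them RBM27 had a change of -2.19 ± 0.33 with CPT (limma adjusted p = 0.0105), ZC3H3 one of -2.27 ± 0.26 with T4 (limma adjusted p = 0.0016) and ZC3H18 one of -2.51 ± 0.21 with T5 (limma adjusted p = 0.0010). Of 5 tailing and deadenylating enzymes, 3 fell with CPT, 4 with T4 and 4 with T5. Of 6 mostly cytoplasmic nucleases and SKI complex factors, 1 fell with CPT, 0 with T4 and 1 with T5, where 1 rose. Their median changes were -0.02, 0.20 and 0.13.

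Likeness was measured as the root mean square difference of log2 ratios to DMSO over the 15 treated libraries, which share the DMSO library. Within the set, XRN2 and C1D were closest, at 0.35, followed by DIS3 and C1D at 0.39 and by ZCCHC8 and PAPD5 at 0.40. RBM7 and ZCCHC8, both NEXT subunits, were 0.61 apart, and ZCCHC7 and PAPD5, both TRAMP subunits, 0.91. ZCCHC7 and C1D were farthest apart, at 2.15. The most like genes outside the set were C10orf76 (0.12) for SKIV2L2, FAM210A (0.19) for RBM7, TAF5 (0.18) for ZCCHC8 and ORC5 (0.12) for ZCCHC7. They were FNBP4 (0.10) for PAPD5, LLPH (0.096) for DIS3, ATP2A2 (0.085) for XRN2, NOP58 (0.094) for C1D and TROVE2 (0.14) for MPHOSPH6. The outside match was sought among all other genes tested and the inside match among 8, so the distances cannot be set against each other.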

How the data were processed

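Per the file headers, the authors deposited FPKM values as a matrix of 16 library columns. The submitters' processing notes name GSNAP, Cufflinks, hg19 and GRCh37 without saying what each was used for, and give no versions. The labels describe the RNA both as total and as mRNA. Leaving out 2 inner header lines, 1 incomplete line and 220 identical repeats gave 25270 genes. FPKM keeps no counts, so no count test was run. Relative depth came from the steps of values below 0.2 FPKM (log2 grid width 0.02).

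The 10600 genes averaging 1 FPKM or more were tested on log2(FPKM + 1) with limma 3.58.1 (R 4.3.3), using trended moderated variances, 2-sided tests and a Benjamini-Hochberg threshold of 0.05, and the fit was tested on simulated data. Dose trends used log2(1 + dose / 0.5 µM), matched doses a block for dose, and slope differences log2(dose) with an intercept per compound. Every condition has 1 library, and separate cultures are not stated, so p-values reflect only scatter around a line or mean difference, curvature included. Python 3.11.15 with pandas 2.3.3 made the tables, and matplotlib 3.10.9 drew the plots.

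The 9 genes, the lists and the tests were chosen with earlier results of these data known, although the rule for the 9 genes uses no measured value. Beside the 9 genes, the rule named for each compound up to 2 called genes of the wider list with the largest change, and for each gene the 2 genes most like it, of which the closest is printed. Alternatives changed the pseudocount (0.1), the filter (none, or 5 FPKM), the scaling, the dose scale and the libraries used.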

Additional observations from a re-analysis of the deposited data

Results flagged for a closer look

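ZCCHC8, the scaffold of the nuclear exosome targeting complex, was flagged because the test of the difference between dose slopes itself was past the threshold. It was 1 of the 9 genes called. Of all genes tested, 6.26% were called lower and 1.05% higher for T4 minus CPT, and 6.92% lower and 2.74% higher for T5 minus CPT. The difference of T4 minus CPT was -1.18 ± 0.19 on the log2(FPKM + 1) scale over 0.5 to 20 µM (limma adjusted p = 0.0109), and that of T5 minus CPT was -0.96 ± 0.19 (limma adjusted p = 0.0202). With DMSO in the fit as a common intercept the differences were -0.40 and -0.43, and neither was called (limma adjusted p = 0.175 and 0.166). Both comparisons use the same 5 CPT libraries. At 0.5 µM ZCCHC8 was at 1.86 FPKM with CPT, 3.28 with T4 and 2.93 with T5, and at 20 µM at 1.27, 0.607 and 0.652 FPKM. The order of the compounds was thus opposite at the ends of the dose range. No group has more than 1 library, so single libraries could not be examined for values far from the others of their group.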

How the results depend on the processing

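Over 57 fitted values and 894 alternatives, 738 kept direction and side of the threshold, 106 lost their call, 21 gained one and 29 changed sign, of which 1 was called. These are the dose trends and matched-dose differences of the 9 genes, and the slope differences of ZCCHC8. Slope differences of the other genes are not among them. At matched doses, leaving out either library of a dose gave the same fit, so each such fit is counted under both libraries. RBM7 with T4 and T5, and SKIV2L2, XRN2 and ZCCHC7 with both T4 and T5 against CPT at matched doses, kept their calls in every alternative run. So did PAPD5 and C1D with T4 against CPT at matched doses. Counts of calls are given here only where they moved by more than 1.5-fold. With no filter, calls among the 9 genes were 3 for the CPT trend and 2 for T5 against T4. With a filter at 5 FPKM, which leaves ZCCHC7, ZCCHC8 and PAPD5 untested, they were 2 with CPT, 3 with T4 and 4 with T5, 3 for T5 against CPT, 1 for T5 against T4 and 0 for both slope differences from CPT. With equal library medians they were 3 for the CPT trend and 2 for T5 against T4, also 2 with quantile scaling. On a linear dose they were 0 with CPT, 1 with T4 and 1 with T5. With dose as a covariate T5 against T4 had 0, and with a common intercept the slope difference of T4 from CPT had 3, which were SKIV2L2, XRN2 and C1D, all higher, in place of ZCCHC8, lower. Counts of the 9 genes lower than DMSO by 2-fold were 2 at 2 µM T4 with a pseudocount of 0.1. With equal medians they were 2 at 5 µM T4, and 0, 1, 3 and 3 at 0.5, 2, 5 and 20 µM T5. With quantile scaling they were 1 at 5 µM T4, 0 at 0.5 µM T5 and 1 at 2 µM T5.

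Among the fitted values counted above, which hold slope differences for ZCCHC8 alone, signs changed as follows. Over treated libraries alone, SKIV2L2 with CPT was 0.047 and XRN2 0.024. With equal medians C1D was 0.24 with CPT, 0.57 with T4 (quantile 0.20) and 0.24 with T5, and XRN2 was 0.51 with T4 (limma adjusted p = 0.0447) and 0.34 with T5. Against CPT with equal medians, RBM7 was 0.078 with T4 (quantile 0.083) and 0.014 with T5 (quantile 0.022), MPHOSPH6 0.014 with T4 and ZCCHC8 0.016 with T5. For T5 against T4, ZCCHC8 was 0.037 with equal medians and 0.014 with quantile scaling, XRN2 was 0.0039 with equal medians, and the ZCCHC8 slope difference was -0.036 with a common intercept. Leaving out each library or dose in turn, the calls ranged from 0 to 5 for the CPT trend, 5 to 7 for T4, 5 to 8 for T5, 5 to 6 for each compound against CPT, 2 to 4 for T5 against T4 and 0 to 2 for the slope differences from CPT. Values that changed sign ranged from -1.57 to 0.10 (SKIV2L2, CPT), -0.68 to 0.062 (XRN2, CPT), -0.41 to 0.18 (C1D, T4), -0.13 to 0.17 (RBM7, T4 against CPT), -0.16 to 0.063 (MPHOSPH6, T4 against CPT) and -0.24 to 0.00079 (RBM7, T5 against CPT). The cause of these shifts was not tested.

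No paired analysis was possible because each condition has 1 library and the labels carry no replicate numbers, and the comparisons at matched doses pair libraries by dose alone. Depth relative to DMSO limits the low values of ZCCHC7, ZCCHC8 and PAPD5, which reached 0.312, 0.607 and 0.453 FPKM with no counting interval.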
